A study of Rattus norvegicus with 8 samples.

Results

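The genes described here are 35 rat genes of the cell cycle, read in the skin of diabetic and control rats. They were chosen by name as textbook genes of cell division, with earlier results of these data known. They comprise 5 regulators of G1 and of the entry into S phase, 10 genes of S phase, 4 genes used across S phase to mitosis, and 16 genes of mitosis. Probes were matched to them through the RefSeq accession that the array files give for each probe. The match found 26 of the 35 genes, each by 1 probe with 1 spot, and all 26 passed the filter on dim probes, which asked for signals flagged as well above background in 4 or more of the 8 samples. The other 9 genes, Mcm3, Mcm4, Mcm5, Mki67, Top2a, Bub1b, Birc5, Kif11 and Cenpf, had no probe matched by accession and are not analysed here. In all, 21509 probes were tested, and 12599 named genes had at least 1 of them.

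The skin, taken at full thickness, came from male Sprague-Dawley rats that were 8 weeks old at harvest. At 4 weeks of age the diabetic group (STZ) had received 60 mg/kg streptozotocin, which kills pancreatic beta cells, the source of insulin, by injection into the abdominal cavity. The control group (sham) had received sodium citrate solution, the vehicle, and both groups were then kept for 4 weeks. The labels also speak of a cutaneous wound without saying if the skin on the arrays was wounded. Chemically induced diabetes models the loss of insulin, and blood glucose values were not used here. The series lists 4 samples per group, but the spot patterns and the file headers show that replicates 1 and 3, and 2 and 4, of each group are 2 readings of the same array. They were averaged, which leaves 4 arrays, called sham A (replicates 1 and 3), sham B (2 and 4), STZ A (1 and 3) and STZ B (2 and 4), with n = 2 per group. The labels do not tell how many rats gave the RNA of an array, so p-values measure the spread between these arrays only.

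A level is given as log2 of the spot intensity minus the 75th percentile of its sample, so 0 is the brightness of that percentile and 1 unit is a doubling. Levels compare arrays for the same gene, never genes with each other. A change is the mean of the STZ arrays minus the mean of the sham arrays, relative to the median change of all tested probes, which was 0.23 on the log2 scale. Each p comes from limma's moderated test, two-sided, of the change before that median is subtracted, and adjusted p-values are Benjamini-Hochberg values over all 21509 probes. An exact permutation test of 2 arrays against 2 cannot go below a p of 0.333.

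The intensity at the 75th percentile ran from 1138 to 1336 over the sham readings, was 1481 and 1496 for STZ A, and was lower, 606 and 624, for STZ B. In a reading, 20266 to 22888 of 24684 probes were flagged as well above background, and no spot was saturated. All 4 arrays lay on 1 slide. The keratinocyte genes Krt14, Krt15 and Tp63 were well above background in all 8 samples, and mark the labelled tissue. In full-thickness skin a lower level can come from fewer cells of a type or from less RNA per cell, and these cannot be told apart here. No probe of the whole table had an adjusted p under 0.05 by limma (0%), while 1576 (7.33%) were higher and 758 (3.52%) lower in STZ at an unadjusted p under 0.05.

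A cell that divides passes from G1 into S phase, when the DNA is copied, and through G2 into mitosis, when the copies are parted. D-type and E-type cyclins with their kinases release E2F transcription factors from the retinoblastoma proteins. E2F then drives genes of DNA replication, while the MuvB complex with B-Myb or FOXM1 drives genes of G2 and mitosis through the CHR element, often beside CCAAT boxes bound by NF-Y. In skin, dividing cells sit in the basal layer of the epidermis and, in growing hairs, in the hair matrix.

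The promoters of 5 measured genes are printed to show these elements. Cdk1 and Cdc20 stand for mitosis, Mcm6 and Mcm7 for S phase, and Bub1 is shown because its levels differed most between the sham arrays. Each is the 150 bases before the gene's start site from RefSeq on GRCr8, 5′ to 3′ on the strand of the gene. Capitals mark a CHR, which reads TTTGAA in its common form and TTCGAA in its variant form, a CCAAT box, or an E2F motif (TTTCGCGC, TTTGGCGC, TTTCCCGC or TTTGCCGC), each searched on both strands, so that ATTGG is a CCAAT box read on the other strand.
Cdk1 promoter, chr20:19265143-19265292, plus strand: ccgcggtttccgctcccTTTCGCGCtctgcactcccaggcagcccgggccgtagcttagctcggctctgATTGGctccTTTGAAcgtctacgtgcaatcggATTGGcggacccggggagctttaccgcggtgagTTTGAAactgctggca
Cdc20 promoter, chr5:137255800-137255949, minus strand: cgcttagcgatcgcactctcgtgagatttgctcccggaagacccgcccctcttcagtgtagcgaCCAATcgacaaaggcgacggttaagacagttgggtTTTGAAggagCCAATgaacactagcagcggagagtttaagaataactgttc
Bub1 promoter, chr3:135504922-135505071, minus strand: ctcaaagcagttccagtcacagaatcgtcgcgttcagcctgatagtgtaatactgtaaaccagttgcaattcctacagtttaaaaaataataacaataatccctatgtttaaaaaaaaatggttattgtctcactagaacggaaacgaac
Mcm6 promoter, chr13:42404353-42404502, minus strand: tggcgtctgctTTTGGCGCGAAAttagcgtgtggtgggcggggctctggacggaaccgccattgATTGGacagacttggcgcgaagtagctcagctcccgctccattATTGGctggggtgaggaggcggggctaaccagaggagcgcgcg
Mcm7 promoter, chr12:22163179-22163328, minus strand: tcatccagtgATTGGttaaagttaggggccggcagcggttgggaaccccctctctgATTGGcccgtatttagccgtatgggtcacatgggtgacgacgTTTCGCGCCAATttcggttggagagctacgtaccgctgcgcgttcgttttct

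Cdk1 holds all 3 kinds of motif in this stretch, with CHR matches that begin at -72 and -16 bases from the start site. In Cdc20 a CHR match at -51 lies between CCAAT boxes at -86 and -41. The run of capitals in Mcm6 that begins at -139 is 2 overlapping E2F matches, 1 on each strand. In Mcm7 an E2F match at -52 overlaps a CCAAT box at -45, and further CCAAT boxes begin at -140 and -94. The Bub1 stretch holds none of the searched letters, which says nothing about the factors that act there.

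RefSeq promoter entries (250 bases before the start site and 50 after) were found for 25 of the 35 genes, 17 of them measured. The other 10 are Ccnd1, Ccne2, E2f1, Mcm4, Rrm2, Ccna2, Foxm1, Aurkb, Tpx2 and Ube2c. A CHR stood in 13 of the 25 (52%), against 19.7% of all 33469 promoters of the table. By phase it stood in 8 of 13 mitosis promoters (61.5%) and 3 of 8 S phase promoters (37.5%). A CCAAT box stood in 19 of 25 (76%), against 37.5% of all promoters, with 6 of 8 in S phase and 10 of 13 in mitosis. The E2F motif stood in 6 of 8 S phase promoters (75%) and in 1 of 13 mitosis promoters (7.69%), that of Cdk1, against 2.14% of all promoters. These shares describe letters in the reference and are not binding data.

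**Figure D1:**
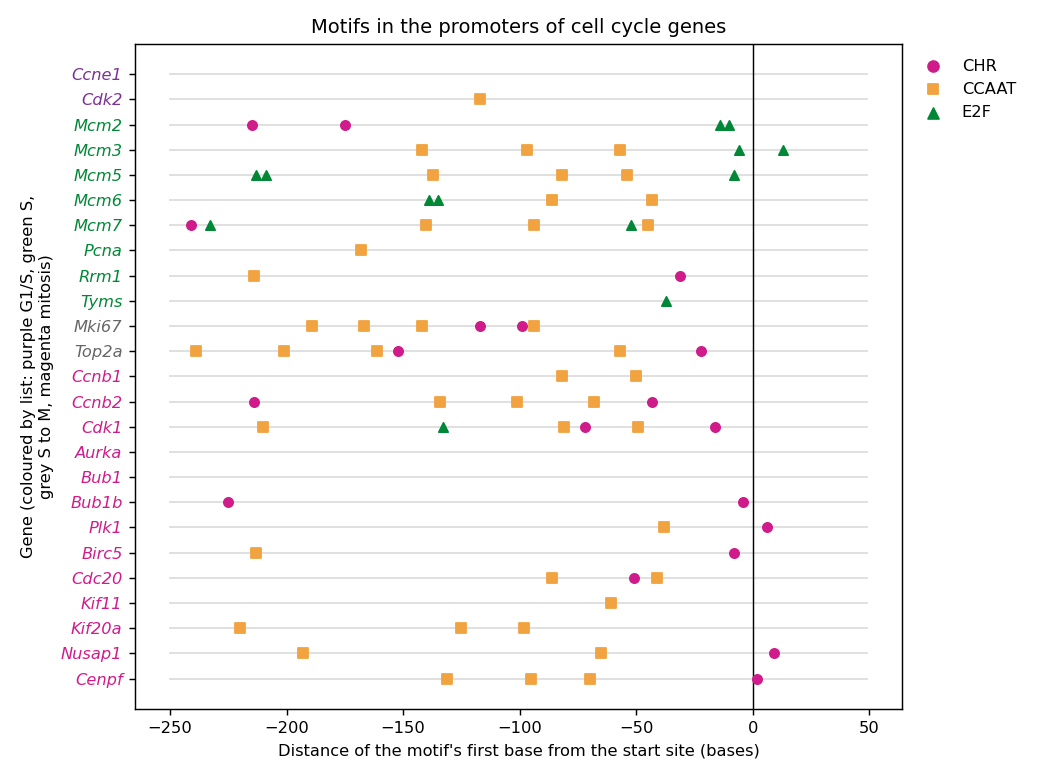
Positions of CHR, CCAAT and E2F motifs in the promoters of the 25 cell cycle genes with a RefSeq entry; the horizontal axis is the distance of the motif's first base from the start site in bases and each row is 1 gene. E2F motifs stand in 6 of 8 S phase rows and in 1 of 13 mitosis rows, while CHR motifs stand in 8 of 13 mitosis rows.

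The cell cycle genes did not separate diabetic from sham skin. None of the 26 passed the test (0% of all probes did), and none was higher or lower at an unadjusted p under 0.05. The changes ran from -1.13 (E2f1) to 0.56 (Tpx2). Their median was -0.28, against 0 over all probes by construction, and it was -0.71 without sham A and 0.13 without sham B. Of the 26 genes 22 lay below the median probe, as did 55.1% of the 12599 named genes, but 17 did after quantile normalization, 25 without sham A and 8 without sham B. The median absolute change was 0.32, smaller than the 0.57 of all probes. No member had both STZ arrays above both sham arrays, which 26.9% of all probes had, although Rrm1 did so under 3 other normalizations. Both STZ arrays lay below both sham arrays for 2 members, E2f1 and Mcm7, and for 17.9% of all probes. These 2 were below under every normalization and reading that kept 4 arrays, while the count was 5 after quantile normalization and 8 with median scaling. Filters, array weights and blocks leave the levels on the arrays as they are and could not alter this. The 95% intervals reached 1.06 to 3.0 to each side of the change, more than a doubling for every member.

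**Figure D2:**
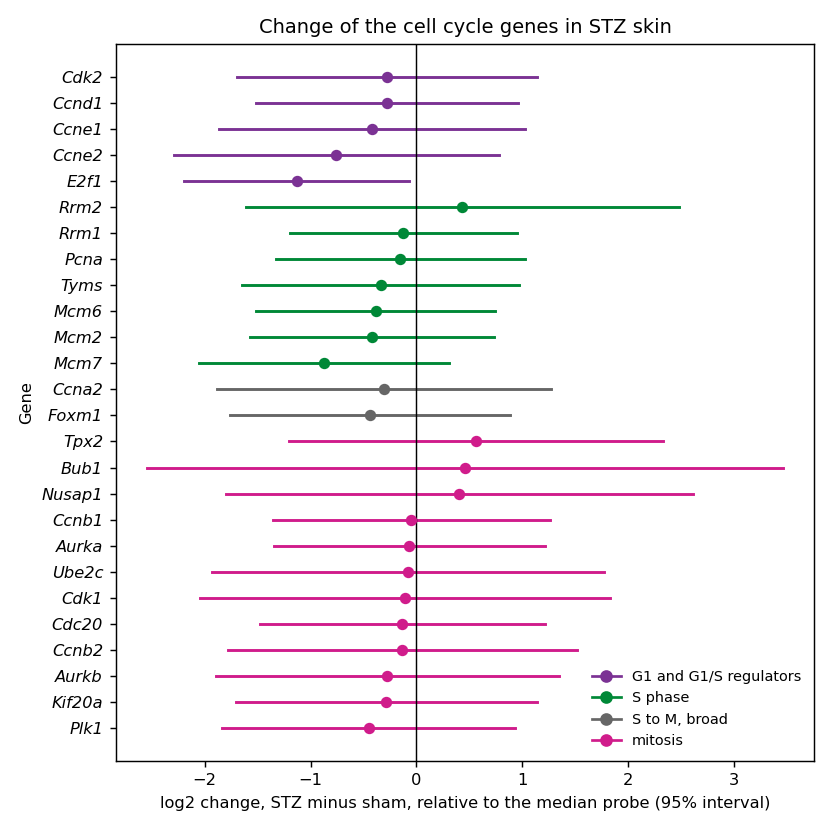
Change of each of the 26 measured cell cycle genes, STZ minus sham, in log2 units relative to the median probe; points are estimates from 2 arrays per group and bars are 95% intervals from limma. The interval of E2f1, -2.20 to -0.07, is the only one of the 26 that leaves out 0 on this relative scale.

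Among the G1 and G1/S regulators, E2f1, the transcription factor that activates genes of S phase, stood furthest from 0. Its level was 0.97 on sham A, 0.87 on sham B, 0.03 on STZ A and 0.00 on STZ B. Both STZ arrays lay below both sham arrays, and array B minus array A was -0.09 in sham and -0.03 in STZ. The change was -1.13 (SE 0.41, n = 2 per group) and did not pass limma's test (adjusted p = 0.523). After normexp and quantile normalization it was -0.73, below an unadjusted p of 0.05 in limma but not after adjustment (adjusted p = 0.306).

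All 5 G1 and G1/S regulators lay below the median probe, as did 55.1% of all named genes. In the cyclins and Cdk2, however, the groups overlapped. Ccne2, an E-type cyclin that activates CDK2, read -1.65, -2.63, -3.15 and -2.19 on sham A, sham B, STZ A and STZ B, and its groups overlapped. Ccne1, the other E-type cyclin, read -0.59, 0.61, -0.11 and -0.24, with both STZ arrays inside the span of the sham arrays. Their changes were -0.76 (SE 0.60) and -0.42 (SE 0.56). Ccnd1, the cyclin D1 that partners CDK4 and CDK6, read -0.03 and 0.30 in sham and 0.44 and -0.28 in STZ, so the STZ arrays held both its highest and its lowest level. Cdk2, the kinase of the E- and A-type cyclins, read -1.44 and -0.63 in sham and -0.67 and -1.50 in STZ. Its groups covered the same span. The changes of Ccnd1 and Cdk2 were -0.28 (SE 0.48) and -0.28 (SE 0.55).

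Of the S phase genes, 7 of 10 were measured, and 6 of those 7 lay below the median probe. Mcm7, a subunit of the MCM helicase that opens the DNA, read 1.63 on sham A, 2.25 on sham B, 1.38 on STZ A and 1.21 on STZ B. Both STZ arrays were the lower ones, by a change of -0.87 (SE 0.46, limma, adjusted p = 0.636). The gap between its lower sham array and its higher STZ array was smaller than the gap of 0.62 between its sham arrays. The helicase subunits Mcm2 and Mcm6 overlapped between the groups. Mcm2 read 1.07, 1.502, 0.93 and 1.27 in the same order, a change of -0.42 (SE 0.45). Mcm6 read 1.09, 1.30, 0.82 and 1.25, a change of -0.38 (SE 0.44). For both genes STZ A was the lowest array and sham B the highest.

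Nucleotide supply and the replication clamp gave no common direction. Rrm2, the regulated subunit of ribonucleotide reductase, read 0.77 on sham A, 2.82 on sham B, 2.797 on STZ A and 2.12 on STZ B. Sham A stood alone as the low array, and the change of 0.43 (SE 0.80) was the only one above 0 among the S phase genes. Rrm1, the large subunit of the same enzyme, read 3.37, 3.27, 3.33 and 3.52 and no gap between its arrays was as large as the SE of its change, 0.42. Pcna, the sliding clamp of DNA polymerase, read 3.23, 3.79, 3.73 and 3.45, with both STZ arrays between the sham arrays. Its change was -0.15 (SE 0.46). Tyms, the thymidylate synthase, read -2.59, -1.69, -2.40 and -2.10 and likewise had both STZ arrays between the sham arrays, a change of -0.34 (SE 0.51).

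The 2 measured genes of the S to M list behaved alike. Ccna2, the cyclin of S phase and G2, read -0.66 on sham A, 0.77 on sham B, -0.08 on STZ A and 0.02 on STZ B. Foxm1, the transcription factor of G2 and mitosis genes, read -0.74, 0.20, -0.61 and -0.36. In both, sham A was the lowest array and sham B the highest, and the changes were -0.31 (SE 0.61) and -0.44 (SE 0.51). The proliferation markers Mki67 and Top2a are among the genes without a matched probe.

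Of the mitosis genes, 12 of 16 were measured, and all 12 differed more between the sham arrays than between the group means. Bub1, a kinase of the spindle checkpoint, read -2.31 on sham A and 1.14 on sham B, and 0.15 and 0.06 on STZ A and STZ B. Its intensity was 232 on sham A and 2911 on sham B, against 1650 and 639 in STZ, and its probe was well above background in all 8 samples. The change was 0.46 with an SE of 1.17, the widest error of the 26 genes. Without sham B the change of Bub1 was 2.16 and without sham A it was -1.24, values that follow from the gap between its sham arrays.

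The kinases and cyclins of mitotic entry showed the same order. Cdk1, the kinase that starts mitosis, read 0.13 on sham A, 2.08 on sham B, 1.02 on STZ A and 1.43 on STZ B, a change of -0.11 (SE 0.75). Its partners Ccnb1 and Ccnb2 read -2.68, -1.74, -2.05 and -2.01, and 0.92, 2.31, 1.36 and 2.06. Plk1, a kinase needed for the spindle and for cytokinesis, read -0.24, 0.85, 0.03 and 0.13, a change of -0.45 (SE 0.54). Aurkb, the kinase of the chromosomal passenger complex, read -1.73, -0.35, -0.78 and -1.39. In all 5 genes sham A was the lowest array, sham B the highest and both STZ arrays lay between them.

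The same held for 3 genes of mitotic exit. Cdc20, an activator of the anaphase-promoting complex, read 1.17, 2.18, 1.82 and 1.72 on sham A, sham B, STZ A and STZ B. Ube2c, a ubiquitin-conjugating enzyme of that complex, read -2.84, -0.98, -1.67 and -1.86. Kif20a, a kinesin of the late spindle, read 0.41, 1.41, 0.55 and 1.15. Their changes were -0.13, -0.08 and -0.28.

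The other 3 mitosis genes had dim probes. Nusap1, a spindle protein, read -6.96, -4.89, -5.88 and -4.70 with intensities of 9.3 to 44.6, and its signal was flagged as well above background in 7 samples of 8. Tpx2, which activates Aurora A on the spindle, read -6.10, -4.83, -5.27 and -4.08 with intensities of 16.8 to 46.4. Sham A was the lowest array and STZ B the highest for both, and their changes were 0.40 (SE 0.86) and 0.56 (SE 0.69). Aurka, the kinase Aurora A, read -4.84, -5.39, -5.29 and -4.61, and sham B was its lowest array. The readings of 1 array differed by up to 0.47 among these 3 probes and by up to 0.12 among the other 23.

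**Figure D3:**
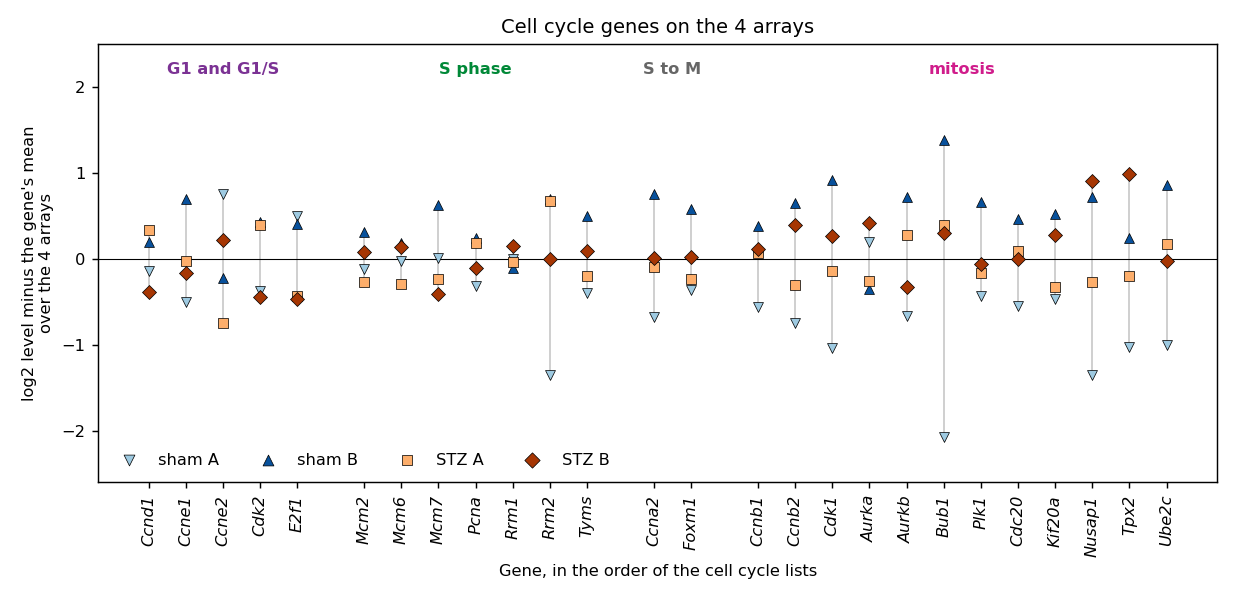
Level of each measured cell cycle gene on the 4 arrays, as log2 level minus the gene's own mean over the arrays; each point is 1 array (mean of 2 readings) and the grey line spans the 4 arrays. For 15 of the 26 genes both STZ arrays lie between sham A, the lowest, and sham B, the highest, with the widest span in Bub1.

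The order of the arrays was counted over all members after it had been seen, as a description. Sham B lay above sham A in 22 of the 26 genes, all but Ccne2, E2f1, Rrm1 and Aurka, while it did so in 48.1% of all probes. Both STZ arrays lay between a low sham A and a high sham B in 15 of the 26, against 5.81% of all probes. These 15 were Ccne1, Pcna, Rrm2, Tyms, Ccna2, Foxm1, Ccnb1, Ccnb2, Cdk1, Aurkb, Bub1, Plk1, Cdc20, Kif20a and Ube2c. The count was 5 when arrays were scaled by their median, and 14 to 16 under the other normalizations and readings with 4 arrays. The genes share the same 4 arrays and are not independent, so the counts describe these arrays and not a condition.

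The difference between the control arrays was larger than the difference between the groups. Sham B minus sham A had a median of 0.97 over the 26 genes, against -0.03 over all probes, and a median absolute value of 0.99 against 0.44. It exceeded the absolute STZ change in 22 of the 26 genes (84.6%), against 41.8% of all probes. At the scaling used here, the STZ arrays lay closer together in these genes, with a median absolute gap of 0.32, while that of all probes was 0.73. With its sign kept, STZ B minus STZ A had a median of 0.10 in these genes and 0.34 over all probes. A shift of this kind depends on the scaling, and the gap is not given for other scalings. With median scaling, both STZ arrays lay between sham A and sham B in 5 of the 26 genes, against 15 here.

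**Figure D4:**
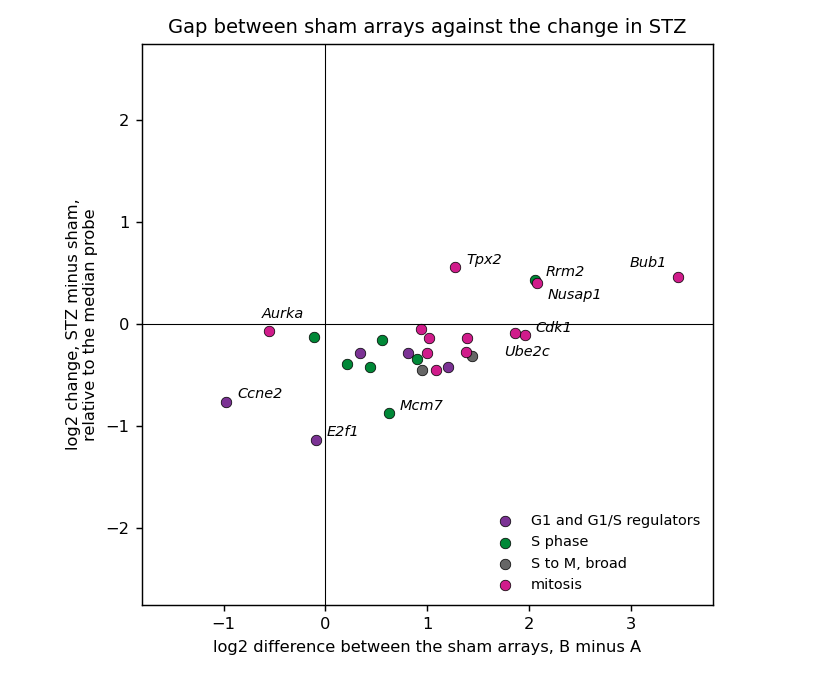
Difference between the sham arrays (horizontal, log2, B minus A) against the change in STZ (vertical, log2 relative to the median probe) for the 26 measured genes, on the same scale for both axes. The genes spread further along the horizontal axis, up to 3.46 for Bub1, than along the vertical axis, where they lie between -1.13 and 0.56.

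Mitosis genes and S phase genes differed in how far the sham arrays lay apart. The median gap was 1.33 over the 12 mitosis genes, 0.56 over the 7 S phase genes, 1.19 over the 2 S to M genes and 0.33 over the 5 G1 and G1/S regulators. Taken from each gene's own mean, the mitosis list had medians of -0.71 on sham A, 0.65 on sham B, -0.15 on STZ A and 0.27 on STZ B. The S phase list had -0.12, 0.31, -0.20 and 0.08. Neither list separated the groups. STZ B minus STZ A had a median of 0.26 in the mitosis list and 0.19 in the S phase list, below the 0.34 of all probes.

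The change in STZ had a median of -0.34 in the S phase list, -0.09 in the mitosis list and -0.42 in the G1 and G1/S list. S phase minus mitosis came to -0.24, with no test over the lists. This difference depended on the sham arrays, being 0.21 without sham A and -0.67 without sham B, and it shrank to -0.03 after quantile normalization. The S phase median was -0.56 without sham A and -0.20 without sham B. The mitosis median was -0.78 without sham A and 0.46 without sham B, and 0.06 without STZ B.

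Of 107 other genes of the cell cycle, in 6 lists, 79 were measured. None passed the test after adjustment, 1 was higher (Gadd45a) and 2 were lower (Ccnd2 and Cdc25b) at an unadjusted p under 0.05, against 7.33% and 3.52% of all probes. Of the 79 genes, 67 were higher on sham B than on sham A, against 48.1% of all probes. All 25 measured genes of licensing and the replication fork and all 19 of the kinetochore, spindle and cytokinesis were higher on sham B. Their median gaps were 0.51 and 0.86, so the mitotic list again had the wider gap. Both STZ arrays lay between a low sham A and a high sham B in 4 of the 25 and 10 of the 19, against 5.81% of all probes. Their median changes were -0.35 and -0.19.

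In the licensing list the genes with the smallest p were Gins3, a part of the replicative helicase complex (-1.01), Gmnn, the inhibitor of licensing (0.56), and Mcm10, a replication initiation factor (-0.88). In the kinetochore list they were Ccnf, cyclin F (0.62), Incenp, the scaffold of Aurora B (-0.87), and Cks2, a CDK subunit (0.26). None of these 6 was below an unadjusted p of 0.05.

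All 8 measured genes among the other G1 cyclins, CDKs and CDC25 or WEE1 enzymes lay below the median probe, with a median change of -0.62. Of all named genes 55.1% lay below it. In 5 of the 8 both STZ arrays lay below both sham arrays, against 17.9% of all probes, and in 1, Ccng1, both lay above. Ccnd2, the cyclin D2, read 2.21 on sham A, 2.22 on sham B, 0.86 on STZ A and -0.03 on STZ B. The change was -2.02 (SE 0.50, limma, adjusted p = 0.308). Cdc25b, a phosphatase that activates CDK1, read -0.85, 0.32, -1.46 and -2.30, a change of -1.84 (SE 0.61, limma, adjusted p = 0.451). Both genes were lower on both STZ arrays, and STZ B was the lowest. Cdc25a, the phosphatase of G1/S, had a change of -0.67 and did not pass the test.

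The CDK inhibitors, which hold cells back, gave no common direction over the 7 of 8 measured, with 3 above and 4 below the median probe and none at an unadjusted p under 0.05. Cdkn2a read -4.43 and -5.21 in sham and -3.91 and -2.90 in STZ, a change of 1.19 (SE 0.58). It was the only gene of the 7 with both STZ arrays above both sham arrays, against 26.9% of all probes. Its probe was dim, with intensities of 53.5 and 35.5 on sham A and B and 99.1 and 82.3 on STZ A and B. Cdkn2c, p18, had both STZ arrays below both sham arrays (change -1.06). Cdkn1c, p57, had a change of 1.30 that came from STZ B, where it read 3.29 against 0.54 on STZ A. Of the 7 inhibitors 3 were higher on sham B than on sham A, against 48.1% of all probes.

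Among checkpoint, p53 and DNA repair genes, 12 of 15 were measured, with a median change of -0.53. Gadd45a, a stress gene that p53 can induce, read 3.06 on sham A, 2.81 on sham B, 4.39 on STZ A and 4.06 on STZ B. Both STZ arrays were above both sham arrays, with a change of 1.07 (SE 0.43, limma, adjusted p = 0.392). Brca1 (-0.96) and Tp53inp1 (-1.22) followed by p and did not pass. Of the pocket proteins, other E2Fs and MuvB partners, 8 of 17 were measured, with a median change of -0.46. Their smallest p-values were those of E2f3 (-1.44), Tfdp1, the E2F partner DP1 (-0.65), and the pocket protein gene Rbl2 (0.23).

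Markers of some other cells moved with the groups, and some differed between the sham arrays. All 15 measured genes of the hair matrix, shaft and inner root sheath were lower on both STZ arrays, at a median change of -6.15, led by Krt28 (-8.88) and Krt72 (-9.09). Their list medians, from each gene's own mean, were 2.28 and 3.01 on sham A and B, and -1.40 and -4.44 on STZ A and B. All 10 T and NK cell markers, all 10 macrophage and dendritic cell markers and all 6 neutrophil markers were higher on both STZ arrays, at medians of 2.72, 2.45 and 2.84. The 6 erythroid markers were lower on both STZ arrays, at a median of -3.79. Other lists were mixed. Of the 4 basal keratinocyte markers both STZ arrays lay above both sham arrays in 1 and below in 1, at a median change of -0.55. Both lay above in 3 of 5 fibroblast, 2 of 6 skeletal muscle and 1 of 4 endothelial markers, and below in none. Both lay above in 2 of 3 stress keratinocyte and 2 of 3 B and plasma cell markers, and below in 3 of 4 adipocyte markers. Over all probes, both STZ arrays lay above both sham arrays in 26.9% and below both in 17.9%. None of these marker genes passed the adjusted test.

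Between the sham arrays, the hair list was 0.40 higher on sham B by its median (12 of 15 genes), the erythroid list 0.61 (6 of 6) and the adipocyte list 0.33 (4 of 4). The 4 basal keratinocyte markers were all lower on sham B, at a median of -0.99, and Krt14 read 7.15 on sham A and 5.54 on sham B. Of the macrophage and dendritic cell markers 2 of 10 were higher on sham B, at a median of -0.85, and of the skeletal muscle markers 5 of 6, at 0.68. Over all probes 48.1% were higher on sham B, at a median of -0.03. The part of these cells in the levels of the cell cycle genes was not tested.

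**Figure D5:**
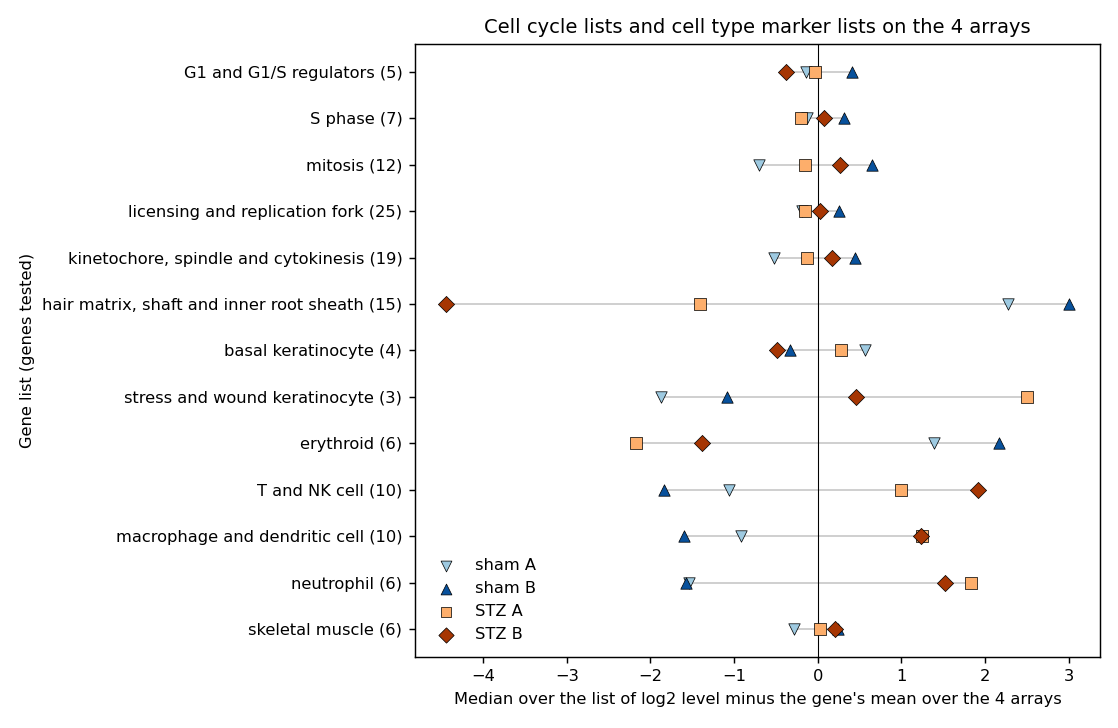
Median over each gene list of the log2 level minus the gene's own mean over the 4 arrays; each point is 1 array and the number of tested genes stands beside the list. The cell cycle lists plotted lie between -0.71 and 0.65, while the hair list runs from 3.01 on sham B to -4.44 on STZ B.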

How the data were processed

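Skin RNA was amplified, labelled with 1 dye (Cy3) and read on Agilent arrays, per the labels' protocols. The deposited intensities are processed signals from which the authors' software, Feature Extraction, had subtracted background. The file headers name its version as 11.0.1.1 and the submitters' processing notes as 11.0.0.1. The deposited median spot and background intensities served 1 alternative. The other deposited columns used are flags of 0 or 1 that mark a spot as well above background, as saturated or as an outlier. The sources used here record no between-array normalization by the authors.

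After log2, the 75th percentile of the 42136 noncontrol spots was subtracted per sample, and spots of a probe were averaged without outlier-flagged ones. Groups follow the treatment label. Spot deviations correlated at 0.979 or more between 2 readings of 1 array and at 0.743 or less otherwise, so readings were averaged. STZ was compared with sham by limma 3.58.1 (lmFit and eBayes, R 4.3.3; prior df 3.01, residual df 2), tested on simulated data. Precision is limited by there being 4 arrays. Probes were named through a RefSeq table of GRCr8; array coordinates, on an older build, are not used here. Each gene took the probe with the highest mean level.

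The members and gene lists were chosen with earlier results of these data known. Levels on every array were to be given for Mki67, Top2a, Pcna, Ccnd1, Cdk1, E2f1, Foxm1, Mcm2 and the 4 members of each phase list with the smallest p, and were added for the others. Of each other cell cycle list the 3 genes with the smallest p are named, and of marker lists up to 2. The alternatives were other scalings, normexp with offset 50, filters, readings, array weights, scan and replicate blocks, and leaving out each array.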

Additional observations from a re-analysis of the deposited data

How the results depend on the processing

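The 17 alternatives beside the settings used above covered normalization, filters, readings, blocks and left-out arrays, and 1 of them, the crossed block, was chosen after the data were seen. In this section a cell cycle gene is 1 of the 26 measured members, and the other lists are not given under the alternatives. None of the 26 had an adjusted p under 0.05 in any fit that counted each array once. Taking the 8 samples as separate arrays, which counts each array as 2, called 5221 probes (unadjusted, 5305 were higher and 3301 lower), with 2 cell cycle genes lower at an unadjusted p under 0.05, E2f1 and Mcm7 (limma, adjusted p = 9.1e-04 and 0.0464). With the scan as a block in 8 samples 3520 probes were called (4436 higher and 2861 lower unadjusted), with the same 2 genes (adjusted p = 0.00515 and 0.0876). Median scaling called 1226 probes (1391 lower unadjusted) at a prior df of 169, where the count of genes between the sham arrays was 5. The replicate block and the crossed replicate block each called 0 probes. Each block holds 1 array of each group, so neither can move a change, and each member has 1 probe. The S phase minus mitosis difference of -0.24 was therefore fixed under both blocks and under the mean over a gene's probes. A mitosis list with the S to M genes gave -0.22. The deviations of same-numbered arrays correlated at -0.20 over the probes, which with 2 arrays per group cannot tell if the numbers pair the arrays. Probes lower at an unadjusted p numbered 1151 after quantile normalization and 1344 after normexp with quantile normalization, where 1 cell cycle gene, E2f1, was lower. Without 1 array the calls over all probes ran from 0 to 48 (48 without STZ A), the probes higher from 676 to 5380 and lower from 305 to 1094, the cell cycle genes higher from 0 to 1 (Bub1, without sham B), and the G1 and G1/S median from -0.79 to -0.14. In these fits the lone array of a group is assumed to vary like the other group. The S phase median was -0.054 after quantile normalization. The cause of these shifts was not tested.

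The changes of 21 of the 26 genes turned sign under at least 1 alternative. After quantile normalization the change was 0.21 for Ccnb2, 0.22 for Cdc20, 0.22 for Cdk1, 0.024 for Kif20a, -0.26 for Nusap1, 0.19 for Pcna and 0.23 for Rrm1. After normexp with quantile normalization it was 0.21 for Ccnb2, 0.014 for Ccnd1, 0.00059 for Cdc20, 0.25 for Cdk1, -0.11 for Nusap1, 0.17 for Pcna and 0.20 for Rrm1. With the second readings Aurka was at 0.012, and with probes well above background in all 8 samples Aurka was at 0.014 and Ccnb1 at 0.030. Without 1 array the change ran from -0.37 to 0.24 for Aurka, -0.94 to 0.39 for Aurkb, -1.24 to 2.16 for Bub1, -1.0 to 0.38 for Ccna2, -0.49 to 0.39 for Ccnb1, -0.80 to 0.54 for Ccnb2 and -0.79 to 0.27 for Ccnd1. It ran from -0.99 to 0.16 for Ccne1, -0.61 to 0.35 for Cdc20, -1.06 to 0.84 for Cdk1, -0.85 to 0.33 for Cdk2, -0.89 to 0.0016 for Foxm1, -0.76 to 0.19 for Kif20a and -0.60 to 1.41 for Nusap1. It ran from -0.45 to 0.19 for Pcna, -0.97 to 0.065 for Plk1, -0.56 to 1.43 for Rrm2, -0.049 to 1.17 for Tpx2, -0.76 to 0.084 for Tyms and -0.98 to 0.82 for Ube2c. E2f1, Mcm2, Mcm6, Mcm7 and Ccne2 stayed below 0 under all 17 alternatives, but not all 17 could turn a sign. Array weights, both blocks and scaling by another value per array, such as the median, leave these relative changes as they were. The size moved from -1.30 to -0.73 for E2f1, -0.61 to -0.075 for Mcm2 and -0.53 to -0.054 for Mcm6. It moved from -1.15 to -0.45 for Mcm7 and from -1.27 to -0.24 for Ccne2.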
